A study of Homo sapiens with 26 samples.

Results

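The genes described here are 37 genes of cholesterol and fatty acid synthesis, taken from a list of symbols that was matched to the rows of the deposited tables of a knockdown experiment. By role, 7 belong to the mevalonate pathway, 11 carry squalene to cholesterol, 5 form the SREBP system that controls both pathways, 4 act in sterol transport and receptor turnover, and 10 make fatty acids and glycerolipids. All 37 were in the table of FIBP and TMEM259 knockdown, which held 12140 genes. In the tables of SART1 knockdown (11823 genes) and of DDX39A and SARNP knockdown (11679 genes), 36 were present, and TM7SF2, a sterol reductase, was not analysed.

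The RNA came from 786-O cells, an established human line of clear cell kidney cancer without functional VHL, grown in RPMI with 10% FBS. Cells received siRNAs (Qiagen) with DharmaFECT 1, were divided into fresh dishes at 24 h and were harvested 48 h after transfection. Poly(A) RNA was sequenced as directional, paired-end libraries. The 26 libraries formed 13 groups of 2, and the series places the 5 targeted genes among those encoding proteins of nuclear speckles, compartments of the nucleus rich in factors for splicing and RNA export. SART1 was targeted with siRNA 4 and siRNA 6, DDX39A with siRNA 1 and siRNA 4, SARNP with siRNA 3 and siRNA 9, FIBP with siRNA 6 and siRNA 7, and TMEM259 (also C19orf6) with siRNA 5 and siRNA 6. Each table held its own pair of control libraries from cells given the non-targeting AllStars Neg Ctrl siRNA, so DDX39A and SARNP share their controls, as do FIBP and TMEM259. Every group, controls included, carried the same transfection, and all groups came from 1 cell line.

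Cholesterol is built from acetyl-CoA through mevalonate and squalene, and fatty acids are built from the same acetyl-CoA by way of malonyl-CoA. Transcription of many of these genes, though not of all 37, is driven by the SREBP factors, which are membrane-bound proteins. SCAP carries them from the endoplasmic reticulum to the Golgi for cleavage when sterols are low. INSIG1 and INSIG2 hold SCAP back when sterols are plentiful. SREBP-2 (gene SREBF2) acts mainly on cholesterol genes and SREBP-1 (gene SREBF1) mainly on fatty acid genes, and both work together with NF-Y and Sp1. Clear cell renal carcinoma is known for cytoplasm filled with cholesterol esters and triglycerides.

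The sequences before the start sites of 4 members are shown because these genes are among those described in full below and because their promoters differ in the elements named above. They are RefSeq sequences of build GRCh38.p14, 250 bases up to the annotated start, written 5′ to 3′ on the gene's own strand. Capitals mark CCAAT, the NF-Y box, on either strand (read as ATTGG on the other), and the sterol regulatory element core TCACNCCAC in SREBF2.
SREBF2 (chr22:41832855-41833104, plus strand): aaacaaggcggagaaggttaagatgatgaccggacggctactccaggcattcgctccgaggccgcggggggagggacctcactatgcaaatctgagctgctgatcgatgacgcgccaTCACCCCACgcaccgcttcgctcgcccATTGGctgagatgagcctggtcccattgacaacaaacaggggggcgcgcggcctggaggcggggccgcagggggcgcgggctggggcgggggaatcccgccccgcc
HMGCS1 (chr5:43313413-43313662, minus strand): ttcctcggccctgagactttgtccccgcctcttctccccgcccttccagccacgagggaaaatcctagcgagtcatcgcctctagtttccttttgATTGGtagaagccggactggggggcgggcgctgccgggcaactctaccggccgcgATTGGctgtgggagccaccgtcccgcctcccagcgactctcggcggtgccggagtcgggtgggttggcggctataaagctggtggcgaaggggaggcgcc
MSMO1 (chr4:165327419-165327668, plus strand): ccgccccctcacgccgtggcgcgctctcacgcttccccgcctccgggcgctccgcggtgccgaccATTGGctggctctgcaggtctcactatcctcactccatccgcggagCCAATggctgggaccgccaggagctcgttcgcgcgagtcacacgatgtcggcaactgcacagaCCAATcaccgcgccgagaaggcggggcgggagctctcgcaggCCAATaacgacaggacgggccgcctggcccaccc
SCD (chr10:100346983-100347232, plus strand): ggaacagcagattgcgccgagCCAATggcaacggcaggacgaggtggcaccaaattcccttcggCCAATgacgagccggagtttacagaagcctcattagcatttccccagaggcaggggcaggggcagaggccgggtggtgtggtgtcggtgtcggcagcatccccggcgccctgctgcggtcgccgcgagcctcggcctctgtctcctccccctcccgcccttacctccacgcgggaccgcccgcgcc

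Windows of 300 bases (250 before to 50 after the start) were found for 33 of the 37 members. As the comparison served 27305 windows of the same length, 1 per RefSeq gene symbol. These were not limited to genes measured in 786-O cells, whereas the members were all measured. Whether the shares below differ from those of expressed genes in general was not tested. CCAAT occurred on either strand in 20 of the 33 (60.6%) against 35.7% of all promoters. The Sp1 box GGGCGG occurred in 30 of 33 (90.9%) against 44.59%. The E-box CACGTG occurred in 6 of 33 (18.2%) against 7.43%. The core TCACNCCAC was matched in 1 member, SREBF2, starting 133 bases before its start site, and in 1.15% of all promoters. Matches of these motifs overlapped each other in 5 members. MSMO1 held 4 CCAAT boxes, HMGCS1 and SCD 2 each, and SREBF2 1. These are matches of letters in a fixed window and not measured binding.

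Libraries of the SART1 table held 21710821 to 26128173 reads in genes, those of DDX39A and SARNP 9959064 to 18086176, and those of FIBP and TMEM259 8966609 to 17018483. Every member had over 100 reads in each library apart from TM7SF2, MYLIP and HSD17B7, whose shallowest libraries held 4, 20 and 50 reads. PAX8, PAX2, CDH6, EPAS1, VIM and NNMT, markers of renal carcinoma cells, were present in all tables, and PTPRC, CD3E, PECAM1, CDH5, ALB and MLANA, markers of other cell types, were not analysed. The mRNA of each targeted gene stood between 8.48% and 48.3% of its control mean. Values below are normalized signal per gene (reads divided by a size factor of the library), and changes are log2 differences from the controls of the same table, with the standard error (SE) of a limma model. A member is said to have risen or fallen where the Benjamini-Hochberg adjusted p over all genes was below 0.05, and a call by both siRNAs means that each siRNA of a target passed with the same sign. The labels do not say if the 2 libraries of a group are separate cultures, so p-values measure the spread between these libraries, which may be technical. In such bulk RNA, less of an mRNA in every cell and fewer cells that hold it cannot be told apart.

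**Figure D1:**
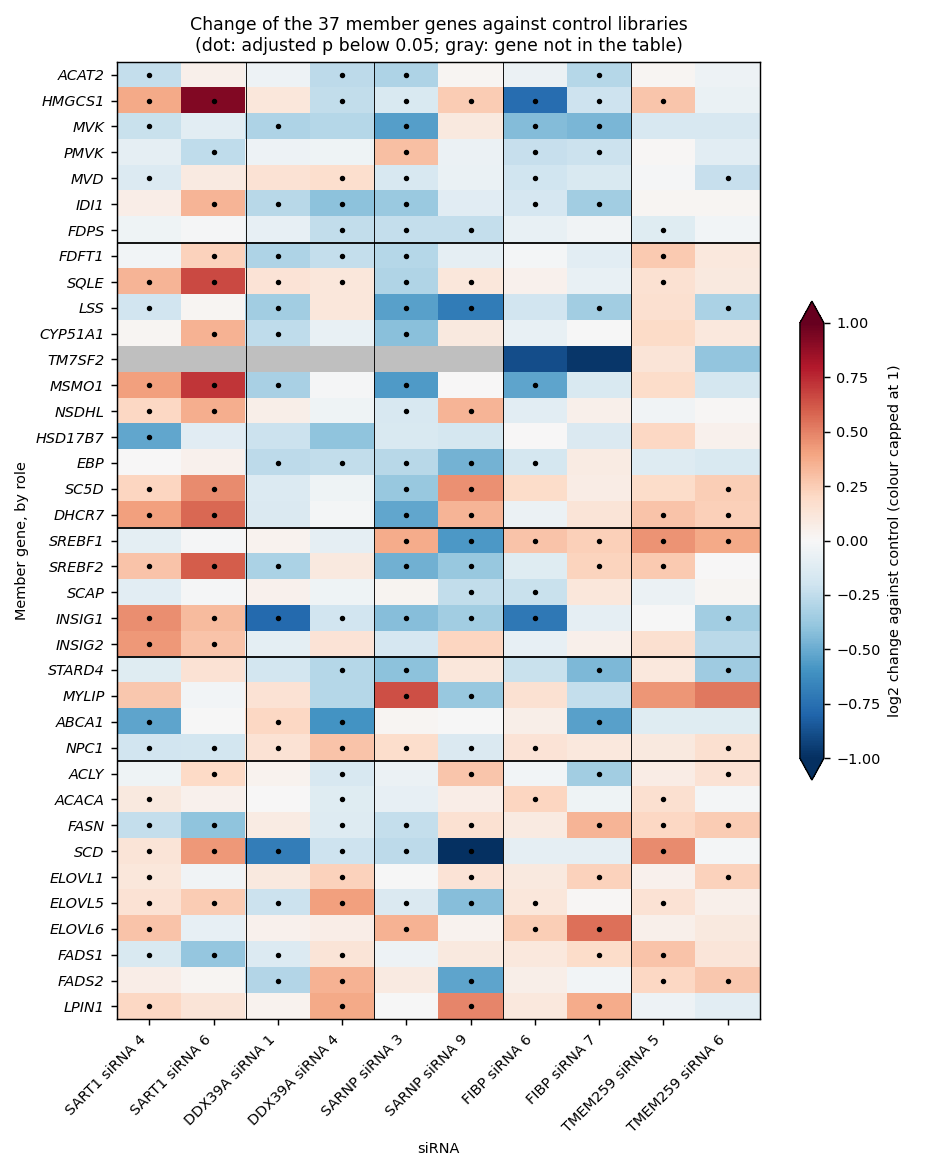
Log2 change of each of the 37 members (rows, by role from mevalonate pathway at the top to fatty acid and glycerolipid synthesis at the bottom) against the control libraries of its table, for each of the 10 siRNAs (columns); dots mark an adjusted p below 0.05, gray marks a gene not in the table, and colour is capped at 1. HMGCS1 reached 0.92 with SART1 siRNA 6, and SCD fell by 2.22 with SARNP siRNA 9, past the end of the colour scale.

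SART1 is a splicing factor of the tri-snRNP, and its mRNA stood at 3224 and 3424 in control cells, 1122 and 1091 with siRNA 4, and 888 and 891 with siRNA 6. Both siRNAs raised 11 of 36 members (30.6%), not far from the 22.9% of all 11823 genes tested that rose, and lowered 3 (8.33%), where 20.0% of all genes fell. The genes that rose comprised 5 of the 10 squalene-to-cholesterol genes, 3 of the 5 SREBP system genes, 1 of 7 mevalonate genes and 2 of 10 fatty acid genes. The genes that fell were 2 of 10 fatty acid genes and 1 of the 4 transport genes. By itself, siRNA 4 lowered 3 of 7 mevalonate genes (median change -0.09) and 2 of the 10 squalene-to-cholesterol genes, LSS and HSD17B7. It raised 6 of 10 fatty acid genes and lowered 2. Of all genes, siRNA 4 raised 29.5% and lowered 28.2%. Alone, siRNA 6 raised 7 of the 10 squalene-to-cholesterol genes and lowered 0. It raised 2 and lowered 1 of 7 mevalonate genes, and raised 3 and lowered 2 of 10 fatty acid genes. Of all genes, siRNA 6 raised 32.5% and lowered 30.5%. The median change of the members was 0.04 with siRNA 4 and 0.07 with siRNA 6, beside -0.01 and -0.00 over all genes.

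HMGCS1, the cytosolic synthase that commits acetyl-CoA to HMG-CoA, stood at 2768 and 2795 in control cells, 3381 and 3867 with siRNA 4, and 5156 and 5406 with siRNA 6. All 4 knockdown libraries lay above both controls, and the siRNA 6 libraries lay highest, at 189.9% of the control mean. Its log2 change was 0.38 (SE 0.05, adjusted p = 3.18e-07) with siRNA 4 and 0.92 (adjusted p = 1.06e-13) with siRNA 6.

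In the later sterol steps, SQLE, the squalene epoxidase, stood at 3667 and 3741 in control cells, 4407 and 4960 with siRNA 4, and 5730 and 5955 with siRNA 6. MSMO1, a methylsterol oxidase, stood at 1117 and 1170, then at 1351 and 1719, and at 1823 and 1941, in the same order. DHCR7, the reductase that yields cholesterol, stood at 1028 and 1092, then at 1326 and 1497, and at 1629 and 1535. None of these knockdown libraries overlapped the controls. SQLE rose by 0.34 and 0.66 (SE 0.04), MSMO1 by 0.41 and 0.72 (SE 0.07) and DHCR7 by 0.41 and 0.58 (SE 0.06), with siRNA 4 and siRNA 6. SC5D, a sterol desaturase, rose by 0.22 and 0.47 (SE 0.06), and NSDHL, which removes the methyl groups of sterol intermediates together with other enzymes, by 0.21 and 0.36 (SE 0.05).

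In the SREBP system 3 of 5 genes rose. SREBF2 stood at 1747 and 1852 in control cells, 2125 and 2268 with siRNA 4, and 2777 and 2713 with siRNA 6, changes of 0.29 and 0.61 (SE 0.04). INSIG1 stood at 2162 and 2346 in control cells, 2799 and 3457 with siRNA 4, and 2887 and 2720 with siRNA 6, changes of 0.47 and 0.32 (SE 0.06). INSIG2 stood at 424 and 455 in control cells, 561 and 626 with siRNA 4, and 566 and 508 with siRNA 6, changes of 0.43 and 0.29 (SE 0.08). Every knockdown library of the 3 genes lay above both controls, with siRNA 6 highest for SREBF2 and siRNA 4 highest on average for both INSIG genes. INSIG2 lost its call by siRNA 6 when replicate 1 of that siRNA was left out.

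Among fatty acid genes, FASN, the fatty acid synthase, stood at 5403 and 5324 in control cells, 4547 and 4562 with siRNA 4, and 4120 and 4008 with siRNA 6. Its change was -0.24 (SE 0.04, adjusted p = 4.79e-06) and -0.40 (adjusted p = 1.12e-09). FADS1, a fatty acid desaturase, fell by 0.15 and 0.39 (SE 0.04), and NPC1, which releases cholesterol from lysosomes, fell by 0.19 with each siRNA (SE 0.04). ELOVL5, a fatty acid elongase, rose by 0.15 and 0.25 (SE 0.04), and SCD, the desaturase that makes oleate, rose by 0.13 and 0.43 (SE 0.05). The libraries of all 14 members called by both siRNAs lay on 1 side of both controls. As these members were chosen by those calls, this is no separate support for them. The joint call was lost without control replicate 2 for FADS1, without siRNA 4 replicate 2 for ELOVL5, and for SCD without control replicate 1, siRNA 4 replicate 2 or either siRNA 6 library. Over all such omissions 9 to 12 members rose and 2 to 3 fell. Quantile normalization also lost the joint calls of ELOVL5 and SCD, and DESeq2 lost that of SCD. The SCD controls, at 1629 and 1870, came close to its siRNA 4 libraries, at 1879 and 1939.

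**Figure D2:**
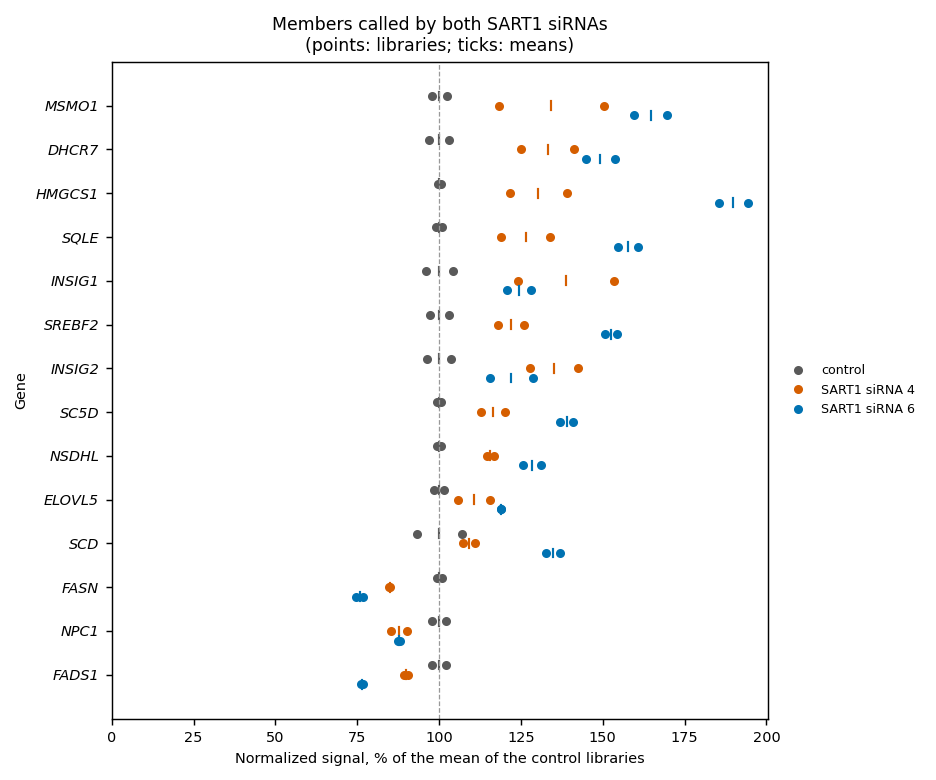
Normalized signal of the 14 members called by both SART1 siRNAs, as percent of the mean of the 2 control libraries (x axis), with 1 row per gene; points are libraries and ticks are group means. The upper 11 genes lie right of the controls with both siRNAs, and FASN, NPC1 and FADS1 lie left of them.

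The siRNAs of SART1 also differed from each other. With siRNA 6, 19 of 36 members (52.8%) were higher than with siRNA 4, beside 19.4% of all genes, and 5 (13.9%) were lower, beside 19.1%. HMGCS1 differed most (0.55, SE 0.05). ABCA1, the pump that exports cholesterol, stood at 4059 and 3956 in control cells, 2793 and 2755 with siRNA 4, and 4197 and 3802 with siRNA 6, so that it fell with siRNA 4 alone and the difference was 0.53 (SE 0.04). ELOVL6, an elongase of saturated fatty acids, went the other way (-0.37, SE 0.05), with 2236 and 2122 for siRNA 4, 1691 and 1687 for siRNA 6 and 1801 and 1766 in control cells. HSD17B7, a sterol reductase whose reads could be split with a near-identical pseudogene copy, stood at 142 and 129.7 in control cells, 82.7 and 108 with siRNA 4, and 119.8 and 131 with siRNA 6, a difference between siRNAs of 0.41 (SE 0.15, adjusted p = 0.0299).

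SARNP is an RNA-binding protein of the mRNA export complex. Its mRNA stood at 907 and 942 in control cells, 119 and 130.3 with siRNA 3, and 84.4 and 72.4 with siRNA 9. Both siRNAs lowered 7 of 36 members (19.4%), where 7.15% of all 11673 genes fell. None rose with both by limma, where 7.17% of all genes did, and the count stayed at 0 at an unadjusted p below 0.05, with edgeR and with DESeq2. In a further 9 members (25.0%) the siRNAs had opposite effects that both passed, beside 13.0% of all genes. By itself, siRNA 3 lowered 21 of 36 members (58.3%, beside 21.0% of all genes) and raised 5 (13.9%, beside 20.3%). The other, siRNA 9, lowered 12 (33.3%, beside 29.4%) and raised 9 (25.0%, beside 29.0%).

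The members that fell with both siRNAs came from several roles. LSS, the synthase that closes squalene epoxide into lanosterol, stood at 614 and 535 in control cells, 381 and 406 with siRNA 3, and 371 and 335 with siRNA 9. SREBF2 stood at 1388 and 1350 in control cells, 943 and 1019 with siRNA 3, and 1064 and 1043 with siRNA 9. INSIG1 stood at 1232 and 1256, then at 854 and 1003, and at 964 and 989.9. For these genes the highest knockdown library lay below the lower control library. LSS fell by 0.54 and 0.70 (SE 0.08), SREBF2 by 0.48 and 0.38 (SE 0.06) and INSIG1 by 0.43 and 0.35 (SE 0.07).

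SCD stood at 2294 and 2421 in control cells, 1782 and 2162 with siRNA 3, and 495 and 513 with siRNA 9. The siRNA 9 libraries were far below all others, at 21.4% of the control mean, the lowest share of any member with any of the 10 siRNAs. Its change was -0.26 (SE 0.06, adjusted p = 0.000514) with siRNA 3 and -2.22 (adjusted p = 1.07e-27) with siRNA 9. FDPS, which makes farnesyl diphosphate, stood at 1980 and 2115 in control cells, 1718 and 1747 with siRNA 3, and 1726 and 1748 with siRNA 9, a fall of 0.24 with each (SE 0.05). EBP, a sterol isomerase, stood at 1079 and 1145, then at 864 and 977, and at 769.9 and 834, a fall of 0.27 and 0.47 (SE 0.07). ELOVL5 stood at 3824 and 4114, then at 3507 and 3655, and at 2896 and 3004, a fall of 0.15 and 0.43 (SE 0.05). FDPS libraries of the 2 siRNAs coincided, whereas for EBP, ELOVL5 and SCD those of siRNA 9 were the lowest. Without siRNA 3 replicate 1 the joint calls of SCD, EBP and ELOVL5 were lost and the count fell from 7 to 4, and ELOVL5 also lost its call without control replicate 2.

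Alone, siRNA 3 lowered most genes of sterol synthesis, namely 9 of the 10 squalene-to-cholesterol genes and 6 of 7 mevalonate genes, with median changes of -0.34 and -0.24. The exceptions were HSD17B7, at -0.15 and not called, and PMVK, phosphomevalonate kinase, which rose by 0.30. With siRNA 9, 4 of the 10 squalene-to-cholesterol genes rose and 2 fell (LSS and EBP), and the median was 0.05. MSMO1 showed the contrast, with 931 and 916 in control cells, 632 and 615 with siRNA 3, and 949 and 903 with siRNA 9. Its siRNA 9 libraries lay on either side of the controls.

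DHCR7 stood at 679 and 660 in control cells, 482 and 449.8 with siRNA 3, and 861 and 838 with siRNA 9. SC5D stood at 368 and 411 in control cells, 318 and 281 with siRNA 3, and 543 and 527 with siRNA 9. SREBF1 stood at 447 and 406 in control cells, 517 and 587 with siRNA 3, and 294 and 278 with siRNA 9. For each of these genes the control libraries lay between the groups of the siRNAs without overlap. DHCR7 changed by -0.52 and 0.34 (SE 0.07), SC5D by -0.38 and 0.46 (SE 0.08) and SREBF1 by 0.37 and -0.57 (SE 0.08), with siRNA 3 and siRNA 9.

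The other members with opposite calls were MYLIP, NSDHL, HMGCS1, FASN, NPC1 and SQLE. MYLIP, a ubiquitin ligase that lowers lipoprotein receptors, stood at 104 and 111 in control cells, 163 and 174 with siRNA 3, and 91.2 and 74.4 with siRNA 9 (0.64 and -0.38, SE 0.14). NSDHL stood at 813 and 788, then at 718 and 718, and at 1056 and 975 (-0.16 and 0.34, SE 0.06). These groups did not overlap either. HMGCS1 stood at 1704 and 1799 in control cells, 1543 and 1611 with siRNA 3, and 2086 and 2098 with siRNA 9 (-0.15 and 0.26, SE 0.05). FASN stood at 4415 and 4166, then at 3568 and 3714, and at 4939 and 4582 (-0.24 and 0.15, SE 0.04). SQLE stood at 2486 and 2483, then at 2058 and 1973, and at 2762 and 2612 (-0.30 and 0.11, SE 0.05). NPC1 was the reverse of these, with 1614 and 1806 in control cells, 1955 and 1907 with siRNA 3, and 1570 and 1524 with siRNA 9 (0.18 and -0.14, SE 0.05). These 6 rested on single libraries. All lost the pair of calls without control replicate 2, which took the count from 9 to 3. NPC1, NSDHL and SQLE lost it without control replicate 1, HMGCS1, NPC1 and NSDHL without siRNA 3 replicate 1, NSDHL without siRNA 3 replicate 2, FASN and SQLE without siRNA 9 replicate 1, and MYLIP and NPC1 without siRNA 9 replicate 2.

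**Figure D3:**
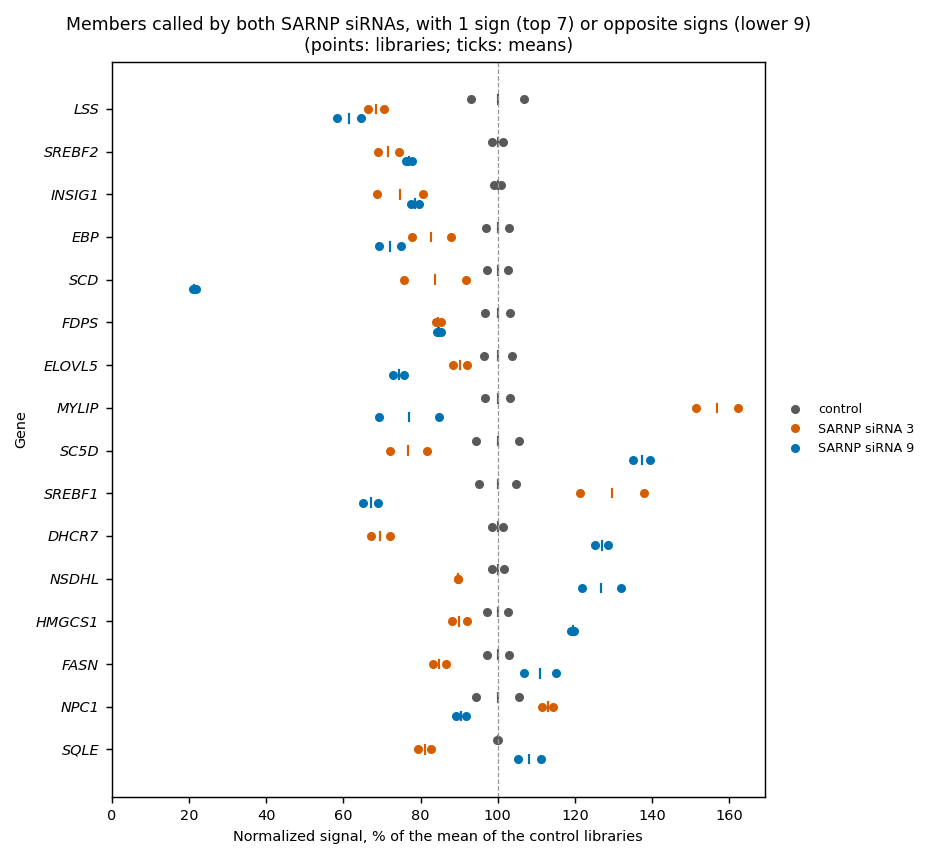
Normalized signal of the 16 members called by both SARNP siRNAs, as percent of the mean of the 2 control libraries (x axis), with 1 row per gene; points are libraries and ticks are group means. The upper 7 genes lie left of the controls with both siRNAs, SCD at 21.4% with siRNA 9, and in the lower 9 the siRNAs lie on opposite sides.

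Tested directly, 29 of 36 members (80.6%) differed between the SARNP siRNAs. Of these, 19 (52.8%) were higher with siRNA 9, beside 31.7% of all genes, and 10 (27.8%) were lower, beside 32.5%. SCD (-1.96, SE 0.06), MYLIP (-1.02, SE 0.14), SREBF1 (-0.95, SE 0.08) and DHCR7 (0.87, SE 0.07) differed most, as siRNA 9 minus siRNA 3.

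DDX39A is an RNA helicase of mRNA export, and its mRNA stood at 3273 and 3146 in control cells, 451 and 447 with siRNA 1, and 521 and 541 with siRNA 4. Both siRNAs lowered 5 of 36 members (13.9%), where 6.37% of all genes fell, and raised 2 (5.56%), where 8.67% rose. They moved 4 members (11.1%) in opposite directions, beside 5.16% of all genes. The median change of the members was -0.09 with siRNA 1 and -0.06 with siRNA 4, beside -0.00 and 0.00 over all genes.

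FDFT1, the squalene synthase, stood at 664 and 653 in control cells, 528 and 537 with siRNA 1, and 551 and 566 with siRNA 4. IDI1, the isomerase of the isoprenoid building blocks, stood at 727 and 823 in control cells, 631 and 642 with siRNA 1, and 573 and 593 with siRNA 4. EBP stood at 1079 and 1145, then at 999 and 864, and at 927 and 949.6. Knockdown libraries lay below both controls in every case. FDFT1 fell by 0.30 and 0.24 (SE 0.07), IDI1 by 0.28 and 0.41 (SE 0.07) and EBP by 0.26 and 0.24 (SE 0.07).

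SCD stood at 2294 and 2421 in control cells, 1445 and 1481 with siRNA 1, and 2063 and 2016 with siRNA 4 (-0.69 and -0.21, SE 0.06). INSIG1 stood at 1232 and 1256, then at 792 and 667, and at 1136 and 1047 (-0.78 and -0.19, SE 0.07). For both genes the siRNA 1 libraries were the lowest and those of siRNA 4 lay between them and the controls. NPC1 stood at 1614 and 1806 in control cells, 1847 and 1918 with siRNA 1, and 2132 and 2039 with siRNA 4, a rise of 0.14 and 0.29 (SE 0.05). SQLE stood at 2486 and 2483, then at 2775 and 2696, and at 2752 and 2632, a rise of 0.14 and 0.12 (SE 0.05). Both lay above the controls in all 4 knockdown libraries, by little.

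Of these 7 members, FDFT1 alone kept its joint call under each alternative run. Without control replicate 2, IDI1, SCD, EBP and INSIG1 lost theirs and the count of members that fell went from 5 to 1. EBP also lost it without siRNA 1 replicate 2, and INSIG1 without control replicate 1 or siRNA 4 replicate 2 and with DESeq2. The count of members that rose went from 2 to 0 without control replicate 1 and to 1 without control replicate 2, either siRNA 1 replicate or siRNA 4 replicate 1.

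The members that the DDX39A siRNAs moved apart included a cholesterol exporter and enzymes of polyunsaturated fatty acids. ABCA1 stood at 6371 and 6225 in control cells, 7167 and 7347 with siRNA 1, and 4225 and 4080 with siRNA 4 (0.20 and -0.60, SE 0.04). FADS2, the first desaturase of polyunsaturated fatty acids, stood at 2541 and 2650, then at 2173 and 2067, and at 3375 and 3238 (-0.29 and 0.35, SE 0.05). ELOVL5 stood at 3824 and 4114, then at 3303 and 3527, and at 5315 and 5251 (-0.22 and 0.41, SE 0.05). The controls lay between the siRNAs for all 3 genes. FADS1 stood at 1946 and 2010, then at 1811 and 1792, and at 2199 and 2118 (-0.13 and 0.13, SE 0.05), and lost its pair of calls without either control, either siRNA 1 library or siRNA 4 replicate 1. Directly compared, 11 of 36 members (30.6%) were higher with siRNA 4 than with siRNA 1, beside 25.6% of all genes, and 8 (22.2%) were lower, beside 25.0%. ABCA1 (-0.81, SE 0.04), FADS2 (0.64, SE 0.05), ELOVL5 (0.63, SE 0.05) and INSIG1 (0.58, SE 0.07) differed most.

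**Figure D4:**
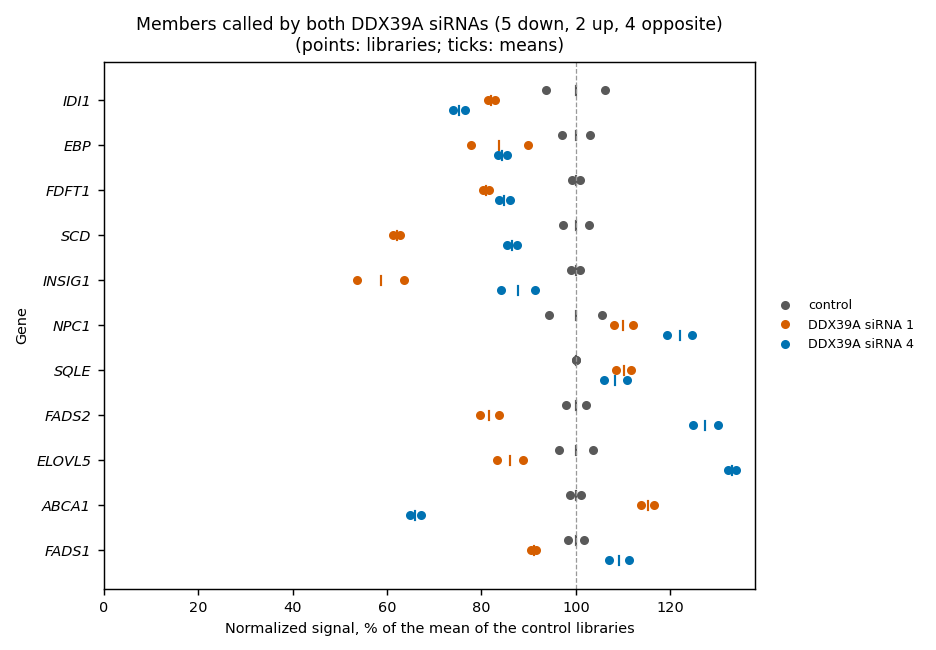
Normalized signal of the 11 members called by both DDX39A siRNAs, as percent of the mean of the 2 control libraries (x axis), with 1 row per gene; points are libraries and ticks are group means. The upper 5 genes lie left of the controls, NPC1 and SQLE right of them, and the lower 4 on opposite sides, ABCA1 at 115.2% with siRNA 1 and 65.9% with siRNA 4.

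The knockdowns of SARNP and DDX39A share their controls, so their difference was tested between the knockdown libraries themselves, as the mean of both siRNAs. It was called for 12 of 36 members (33.3%) as lower with SARNP siRNAs, beside 27.5% of all genes, and for 5 (13.9%) as higher, beside 26.1%. SCD (-0.80, SE 0.04), LSS (-0.50, SE 0.06), ELOVL5 (-0.39, SE 0.03) and SREBF2 (-0.32, SE 0.04) differed most. For LSS, the DDX39A libraries held 462 and 439 with siRNA 1 and 618 and 625 with siRNA 4, all above the 335 to 406 of the SARNP libraries. SREBF2 held 1089 and 1104 with DDX39A siRNA 1 and 1495 and 1438 with siRNA 4, again above the SARNP libraries. For SCD and ELOVL5 the libraries were not separated by target. SCD with DDX39A siRNA 1 (1445 and 1481) lay below SARNP siRNA 3 (1782 and 2162), and only SARNP siRNA 9 (495 and 513) lay below all DDX39A libraries. ELOVL5 with DDX39A siRNA 1 (3303 and 3527) overlapped SARNP siRNA 3 (3507 and 3655), while DDX39A siRNA 4 (5315 and 5251) lay highest and SARNP siRNA 9 (2896 and 3004) lowest.

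FIBP is an intracellular binding partner of a fibroblast growth factor. Its mRNA stood at 539 and 541 in control cells, 51.6 and 66.7 with siRNA 6, and 103 and 81.2 with siRNA 7. Of 37 members, 4 fell with both, where 4.39% of all 11768 genes did, and 2 (5.41%) rose, where 4.68% did. The 4 that fell were all mevalonate genes, 4 of the 7 in that list (57.1%). The list's median change was -0.20 with siRNA 6 and -0.22 with siRNA 7, beside -0.00 over all genes for each.

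HMGCS1 stood at 1614 and 1713 in control cells, 958 and 1002 with siRNA 6, and 1539 and 1343 with siRNA 7. MVK, mevalonate kinase, stood at 199 and 214 in control cells, 168 and 139 with siRNA 6, and 139 and 162 with siRNA 7. PMVK stood at 566 and 530.3, then at 457 and 477, and at 455 and 487. All knockdown libraries of these 3 genes lay below both controls, those of the siRNAs overlapped for MVK and PMVK, and for HMGCS1 the siRNA 6 libraries stood apart from the rest, at 58.9% of the control mean. HMGCS1 fell by 0.76 and 0.21 (SE 0.06), MVK by 0.43 and 0.45 (SE 0.12) and PMVK by 0.23 and 0.22 (SE 0.07). IDI1 stood at 823 and 909 in control cells, 779 and 763 with siRNA 6, and 696 and 668 with siRNA 7, a fall of 0.17 (SE 0.06, adjusted p = 0.0491) and 0.34 (adjusted p = 2.17e-05).

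ELOVL6 stood at 857 and 819 in control cells, 1029 and 961 with siRNA 6, and 1188 and 1265 with siRNA 7. SREBF1 stood at 246 and 256, then at 311 and 302, and at 300.4 and 291. Both lay above the controls in all knockdown libraries, with ELOVL6 highest under siRNA 7. ELOVL6 rose by 0.25 and 0.55 (SE 0.06), and SREBF1 by 0.29 and 0.24 (SE 0.09).

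These joint calls depended on single libraries. The count of members that fell went from 4 to 1 without control replicate 2 and to 2 without siRNA 6 replicate 1 or siRNA 7 replicate 1, and DESeq2 on the recovered reads gave 1. HMGCS1 lost its call also without siRNA 7 replicate 2, MVK and IDI1 without siRNA 6 replicate 2, and PMVK without control replicate 1. SREBF1 lost its call without either control or either siRNA 7 library, each leaving 1 that rose. Without siRNA 6 replicate 1 both SREBF1 and ELOVL6 lost theirs, and the 1 member that then rose with both siRNAs was another gene.

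Between the FIBP siRNAs, 11 of 37 members (29.7%) were higher with siRNA 7 than with siRNA 6, beside 17.9% of all genes, and 6 (16.2%) were lower, beside 17.7%. INSIG1 stood at 1108 and 1243 in control cells, 647 and 789 with siRNA 6, and 1174 and 1038 with siRNA 7, a difference of 0.63 (SE 0.07). MSMO1 stood at 645 and 733, then at 465 and 489.6, and at 612 and 622, a difference of 0.37 (SE 0.08). For both genes the siRNA 6 libraries were the lowest. HMGCS1 differed by 0.55 (SE 0.06). ABCA1 differed by -0.60 (SE 0.05), with 2825 and 2696 in control cells, 2906 and 2831 with siRNA 6, and 1962 and 1825 with siRNA 7.

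TMEM259 encodes an endoplasmic reticulum protein that spans the membrane. Its mRNA stood at 2270 and 2148 in control cells, 659.5 and 679 with siRNA 5, and 1045 and 1090 with siRNA 6. The mRNA of FIBP stood at 71.6% of its control mean with TMEM259 siRNA 6, and its part in the results below was not tested. A regulator, a sterol gene and a pair of fatty acid genes were higher with both siRNAs. Both siRNAs raised 4 of 37 members, where 2.56% of all genes rose. By limma 0 fell with both, where 2.41% of all genes did, and the count was 2 at an unadjusted p below 0.05 and 0 with edgeR and with DESeq2. The 4 were SREBF1, DHCR7, FASN and FADS2. The median change of the members was 0.14 with siRNA 5 and 0.01 with siRNA 6, beside -0.01 and -0.00 over all genes.

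SREBF1 stood at 246 and 256 in control cells, 336 and 349 with siRNA 5, and 340.4 and 312 with siRNA 6. FASN stood at 2994 and 2965 in control cells, 3289 and 3588 with siRNA 5, and 3584 and 3525 with siRNA 6. FADS2 stood at 1884 and 2031, then at 2254 and 2255, and at 2396 and 2314. Each knockdown library of these genes exceeded both controls. SREBF1 rose by 0.45 and 0.38 (SE 0.09), FASN by 0.20 and 0.26 (SE 0.04) and FADS2 by 0.20 and 0.27 (SE 0.05). DHCR7 stood at 556 and 536 in control cells, 637 and 694 with siRNA 5, and 662 and 625 with siRNA 6, a rise of 0.28 and 0.24 (SE 0.07). Without siRNA 5 replicate 2 the joint calls of DHCR7 and FASN were lost, without siRNA 6 replicate 1 those of DHCR7 and SREBF1, each leaving 2 of the 4. FADS2 lost its call without control replicate 1, and DHCR7 without control replicate 2 and with DESeq2.

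**Figure D5:**
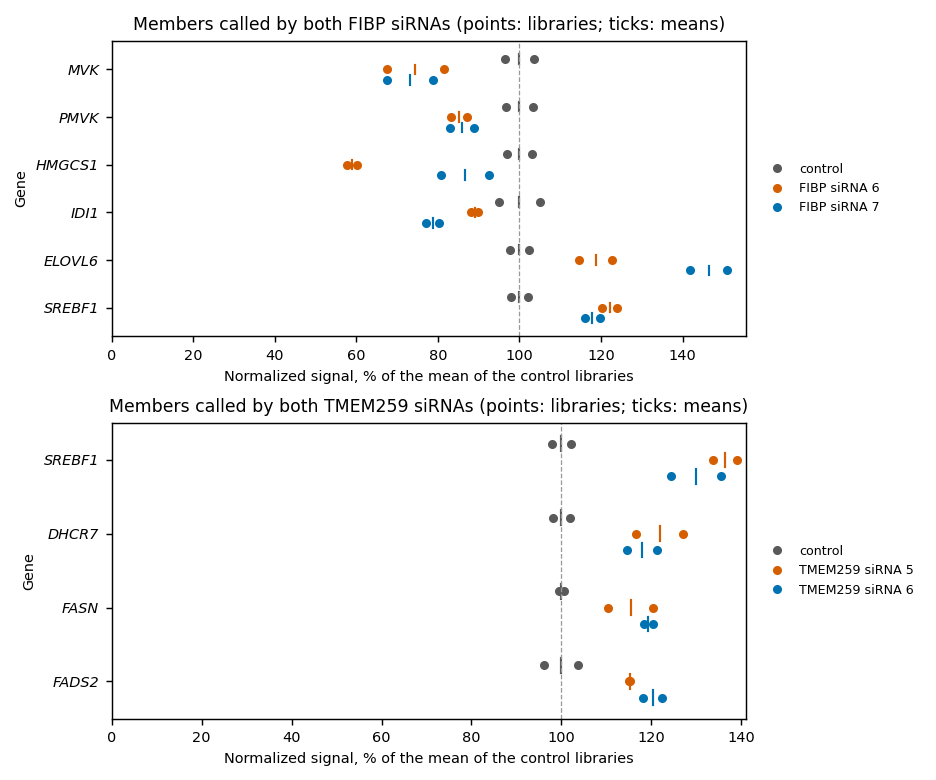
Normalized signal of the members called by both FIBP siRNAs (upper plot, 6 genes) and by both TMEM259 siRNAs (lower plot, 4 genes), as percent of the mean of the 2 control libraries that both knockdowns share (x axis); points are libraries and ticks are group means. The upper 4 genes of the FIBP plot lie left of the controls, HMGCS1 at 58.9% with siRNA 6, and all 4 genes of the TMEM259 plot lie right of them.

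Between the TMEM259 siRNAs, 11 of 37 members (29.7%) were lower with siRNA 6 than with siRNA 5, beside 15.6% of all genes, and 1 (2.7%), ELOVL1, was higher, beside 16.5%. SCD stood at 509 and 592 in control cells, 757 and 763 with siRNA 5, and 504 and 581 with siRNA 6, a difference of -0.49 (SE 0.08). LSS stood at 543 and 500.1, then at 621 and 543, and at 419 and 419, a difference of -0.47 (SE 0.08). STARD4, a cytosolic sterol carrier, stood at 298 and 303, then at 339.5 and 309, and at 245 and 224, a difference of -0.47 (SE 0.10). INSIG2 differed by -0.43 (SE 0.10). SCD was high with siRNA 5 alone, whereas LSS and STARD4 were low with siRNA 6.

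TMEM259 and FIBP knockdown share their controls and were compared between their own libraries. They differed for 21 of 37 members (56.8%), beside 37.1% of all genes. With TMEM259 siRNAs 19 of the 21 (51.4% of the members) were higher than with FIBP siRNAs. The other 2 (5.41% of the members), ELOVL6 and LPIN1, were lower, beside 18.3% of all genes. The rest of the 37.1% of all genes were higher. HMGCS1 stood at 2104 and 1923 with TMEM259 siRNA 5 and 1523 and 1648 with siRNA 6, a difference of 0.59 (SE 0.04, adjusted p = 5.1e-16) from the FIBP libraries given above. FIBP siRNA 7 replicate 1, at 1539, lay within the range of the TMEM259 libraries, and the others lay below it. MSMO1 differed by 0.34 (SE 0.05), but its libraries were not separated by target. Those of FIBP siRNA 7 (612 and 622) lay between those of TMEM259 siRNA 6 (568 and 649). TM7SF2 differed by 0.80 (SE 0.31, adjusted p = 0.041) on 4 to 21 reads a library. MYLIP differed by 0.53 (SE 0.17, adjusted p = 0.0104) on 20 to 75 reads a library. Its libraries overlapped between targets, with FIBP siRNA 6 replicate 1 (44.9) above replicate 2 of TMEM259 siRNA 5 (43.6) and of siRNA 6 (43.2).

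Across the 5 targets, 7 members rose with both siRNAs of 1 target and fell with both siRNAs of another. The share of all genes with such patterns across targets was not counted, so these counts are not set against a background. HMGCS1 rose with SART1 siRNAs and fell with FIBP siRNAs. SREBF2, INSIG1 and SCD rose with SART1 siRNAs and fell with SARNP siRNAs, and the last 2 also fell with DDX39A siRNAs. The falls with SARNP and DDX39A siRNAs were measured against the same control libraries and are not independent of each other. ELOVL5 rose with SART1 siRNAs and fell with SARNP siRNAs, FASN fell with SART1 siRNAs and rose with TMEM259 siRNAs, and NPC1 fell with SART1 siRNAs and rose with DDX39A siRNAs. INSIG1 and SCD were the 2 members with joint calls in at least 3 targets. All of the SCD calls, and the INSIG1 call with DDX39A siRNAs, were lost on leaving out 1 library or another, as given above. By SART1 call, CCAAT was present in 9 of the 10 promoter windows found for the members that rose. It was present in 0 of the 2 found for those that fell and in 11 of the 21 found for the others. GGGCGG was present in 8 of 10, 2 of 2 and 20 of 21 of these windows, in the same order. These are counts of letters with no test, and only 2 windows stand for the members that fell.

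No call by both siRNAs of any target, with the same or opposite signs, was made for 11 members. ACAT2, which joins acetyl-CoA units and overlaps TCP1 on the opposite strand, ranged from -0.31 (SARNP siRNA 3) to 0.05 (SART1 siRNA 6) in log2 change and fell with 4 of 10 siRNAs. MVD, the mevalonate diphosphate decarboxylase, ranged from -0.23 to 0.17 and CYP51A1, a lanosterol demethylase, from -0.42 to 0.34. STARD4 ranged from -0.45 to 0.15 and fell with 4 siRNAs. SCAP ranged from -0.25 to 0.11, and HSD17B7 from -0.52 to 0.20. ACLY, which makes cytosolic acetyl-CoA from citrate, ranged from -0.35 to 0.28, and ACACA, the carboxylase that makes malonyl-CoA, from -0.12 to 0.21. ELOVL1, an elongase of very long chains, ranged from -0.04 to 0.23 and rose with 5 siRNAs, and LPIN1, a phosphatidate phosphatase, ranged from -0.11 to 0.49 and rose with 4. Neither gene fell with any siRNA by limma. TM7SF2 ranged from -0.98 to 0.13 over the 4 siRNAs of its table and passed with none.

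Genes next to these pathways were described from 85 listed genes, of which 77 or 78 were tested in each table. With SART1 siRNAs, 19 of 78 rose (24.4%) and 12 fell (15.4%), beside 22.9% and 20.0% of all genes. ACSS2, which makes acetyl-CoA from acetate, fell by 0.63 and 0.65 (SE 0.09). NR1H3, the sterol-sensing receptor LXR alpha, fell by 0.57 and 0.82 (SE 0.14), and RNF139, a sterol-responsive ubiquitin ligase, rose by 0.44 and 0.52 (SE 0.06). With DDX39A siRNAs 9 of 77 rose (11.7%, beside 8.67% of all genes) and 5 fell (6.49%, beside 6.37%). With SARNP siRNAs 8 of 77 rose (10.4%, beside 7.17%) and 5 fell (6.49%, beside 7.15%). These shares lay near those of all genes. ACSL5, a fatty acyl-CoA ligase, rose by 0.75 and 1.78 (SE 0.17) with DDX39A siRNAs and by 0.55 and 2.60 (SE 0.17) with SARNP siRNAs, against the same controls. LBR, whose sterol reductase domain does the same step as TM7SF2, rose by 0.31 and 0.65 (SE 0.05) with SARNP siRNAs.

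With FIBP siRNAs 5 of 78 neighbours rose (6.41%, beside 4.68% of all genes) and 6 fell (7.69%, beside 4.39%). MBTPS1, the protease that makes the first cut in SREBP, fell by 0.24 and 0.40 (SE 0.05), and MBTPS2, which makes the next cut, rose by 0.22 and 0.27 (SE 0.08). With TMEM259 siRNAs 1 of 78 rose (1.28%, beside 2.56% of all genes) and 3 fell (3.85%, beside 2.41%). MBTPS2 rose by 0.22 and 0.38 (SE 0.08). ERLIN1, a sterol-binding protein of the endoplasmic reticulum, fell by 0.15 and 0.17 (SE 0.05), and LIPA, the lysosomal lipase, fell by 0.22 and 0.15 (SE 0.05). The rise of MBTPS2 with TMEM259 siRNAs was lost without control replicate 1 or siRNA 5 replicate 2, and all 3 falls without control replicate 1 or siRNA 6 replicate 2. The counts of neighbours with 4 of the targets depended on single libraries, with ranges of 4 to 7 that rose and 3 to 5 that fell for DDX39A, 5 to 8 and 2 to 4 for SARNP, 2 to 6 and 4 to 6 for FIBP, and 0 to 1 and 0 to 3 for TMEM259.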

How the data were processed

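The members, role lists, neighbouring genes and tests were chosen with earlier results of these data known. The submitters' processing notes name STAR, Picard, HTSeq, DESeq2 and build hg19, without versions or roles; the annotation and the strand setting are not given in the sources used here. The deposited values are a normalized signal, gene counts that the authors divided by 1 size factor per library. All values were whole multiples of 1 read's worth in their library (tolerance 0.0001 of a read), which returned whole reads. Entries that name no gene (7.36% to 30.5% of a library) were left out. Tables were normalized apart and never merged. Genes with a mean of at least 10 were tested on log2(value + 1), which understates changes of low genes, with limma 3.58.1 (R 4.3.3, trend), 1 fit per table over all its groups, two-sided, with Benjamini-Hochberg adjusted p below 0.05 over all genes. The model was also run on simulated data, with the spread taken from these libraries and equal effects for both siRNAs. That run cannot address replicates that are technical or siRNAs that disagree. Misspelled labels ("SARPN siRNA9", "FIPBkd6") were taken to mean SARNP and FIBP. Named members are those called by both siRNAs of a target (for SART1 the 8 with the largest smaller change in full), those with opposite calls, up to 4 per contrast and up to 2 neighbours per list. Members named as exceptions or illustrations, such as MSMO1 with SARNP siRNAs, and the motif counts by SART1 call were chosen after their values were seen. Alternatives were a pseudocount of 5, quantile normalization, a filter at a mean of 50 or none, the recovered reads tested with edgeR 4.0.16 (TMM) and DESeq2 1.42.0, the replicate number as a block, only the groups compared, and leaving out each library. Some members of these pathways are not reported here.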

Additional observations from a re-analysis of the deposited data

Results flagged for a closer look

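Members whose siRNAs of 1 target had opposite effects, with a called difference between the siRNAs (limma, over all genes), are listed as values. For DDX39A, siRNA 4 minus siRNA 1 gave -0.81 for ABCA1, 0.63 for ELOVL5, 0.26 for FADS1 and 0.64 for FADS2 on the log2 scale. For SARNP, siRNA 9 minus siRNA 3 gave 0.41 for HMGCS1, 0.41 for SQLE, 0.50 for NSDHL, 0.84 for SC5D and 0.87 for DHCR7, and 0.39 for FASN. In the other direction it gave -0.95 for SREBF1, -1.02 for MYLIP and -0.32 for NPC1.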

How the results depend on the processing

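The 38 member changes followed here (mean of both siRNAs) were those that both siRNAs had already called with the same sign. Their means were therefore likely to pass from the start. Of 518 values, 507 kept their direction and side of the threshold, 11 fell short of it and 0 reversed. This count does not measure how stable the joint calls were. Joint calls held under each alternative for 8 of 11 members that rose and 2 of 3 that fell with SART1 siRNAs. With DDX39A siRNAs they held for 1 of 5 that fell and 0 of 2 that rose. They held for 4 of 7 that fell with SARNP siRNAs, and for none with FIBP or TMEM259 siRNAs. Opposite calls held for 3 of 4 members with DDX39A siRNAs and for 3 of 9 with SARNP siRNAs. Where a count moved, the cause was not tested. Quantile normalization gave 5 members that fell with SART1 siRNAs, 0 that rose with DDX39A siRNAs, 5 neighbours that rose with DDX39A siRNAs and 2 with TMEM259 siRNAs. DESeq2 gave 0 members that rose with DDX39A siRNAs, 1 that rose and 1 that fell with FIBP siRNAs, and 4 opposite calls with SARNP siRNAs. For neighbours DESeq2 gave 5 that rose with DDX39A siRNAs, 4 that rose and 3 that fell with SARNP siRNAs, 2 that rose with FIBP siRNAs, and 0 that rose and 1 that fell with TMEM259 siRNAs. With edgeR 1 member rose with FIBP siRNAs. A fit of only the groups compared gave 1 member that fell with both TMEM259 siRNAs. For SART1 that fit is the main one.

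Leaving out 1 library at a time gave 0 to 2 members that rose and 1 to 5 that fell with DDX39A siRNAs, 4 to 8 that fell and 3 to 8 opposite calls with SARNP siRNAs, 1 to 2 that rose and 1 to 4 that fell with FIBP siRNAs, and 2 to 4 that rose with TMEM259 siRNAs. For neighbours it gave 4 to 7 that rose and 3 to 5 that fell (DDX39A), 5 to 8 and 2 to 4 (SARNP), 2 to 6 that rose (FIBP), and 0 to 1 and 0 to 3 (TMEM259). A group left with 1 library was assumed to vary like the others. Counts of opposite calls and of single siRNAs were added after their values were seen. The replicate numbers did not pair the libraries (correlations of -0.06 to 0.05), and with a replicate block 3 in place of 4 fell with both FIBP siRNAs (IDI1 was lost) and no other count moved by over 1.5 times. With 2 libraries a group, and 4 reads at the least for TM7SF2, small changes of low genes were not detectable.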
